A study of Rattus norvegicus with 18 samples.

Results

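The nucleus pulposus is the soft, water-rich centre of an intervertebral disc, and its RNA was sequenced from rats aged 2, 10 and 20 months. The genes described here encode enzymes and transporters that build glycosaminoglycans and set their sulfation. They were chosen by name from a list of 37 symbols, and 34 of these were among the 18923 genes of the gene table. The levels of Chst7, Chst13 and Hs6st2 are not analysed here. The labels list 18 libraries, 9 of them input libraries without immunoprecipitation and 9 made after pull-down of RNA carrying N6-methyladenosine. Values were at hand for the 9 input libraries, 3 per age, which measure the abundance of poly(A) RNA. The labels give the tissue and the age, and do not tell whether replicates came from separate animals. The p-values therefore measure only the spread among libraries within ages, taken over all ages together, which can be technical. Strain and sex are not given in the labels used here.

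Glycosaminoglycans are long sugar chains that are attached to core proteins to make proteoglycans. A short linker is built on a serine of the core protein, and the next sugar added decides whether the chain becomes chondroitin and dermatan sulfate or heparan sulfate. Sulfotransferases then place sulfate groups from the donor PAPS along the chain. In the nucleus pulposus the sulfated chains of aggrecan hold water against load, whereas hyaluronan is made without a core protein and without sulfate.

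The level of a gene is given as FPKM, the number of fragments per kilobase of a gene's transcript relative to all mapped fragments in the library. Of the 34 genes, 29 had an FPKM of at least 1 in all 9 libraries, and 10 averaged 20 or more. Ust, Sulf1 and Has2 lay below 1 in all 9 libraries, which leaves 31 genes that could be tested. Chst15 averaged 0.689, 1.19 and 0.617 FPKM at 2, 10 and 20 months and passed the filter only through the 10-month libraries. Slc26a2 reached 1 in 4 libraries, none of them from 20 months, and passed in the same way. A gene that enters through the age where it is high had to differ, so their changes are given as a description, and each count over the 31 genes is followed by the count over the 29, added after the data were seen. The estimated number of fragments behind a tested gene ranged between 8, for Slc26a2, and 11631, for Csgalnact1.

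**Figure D1:**
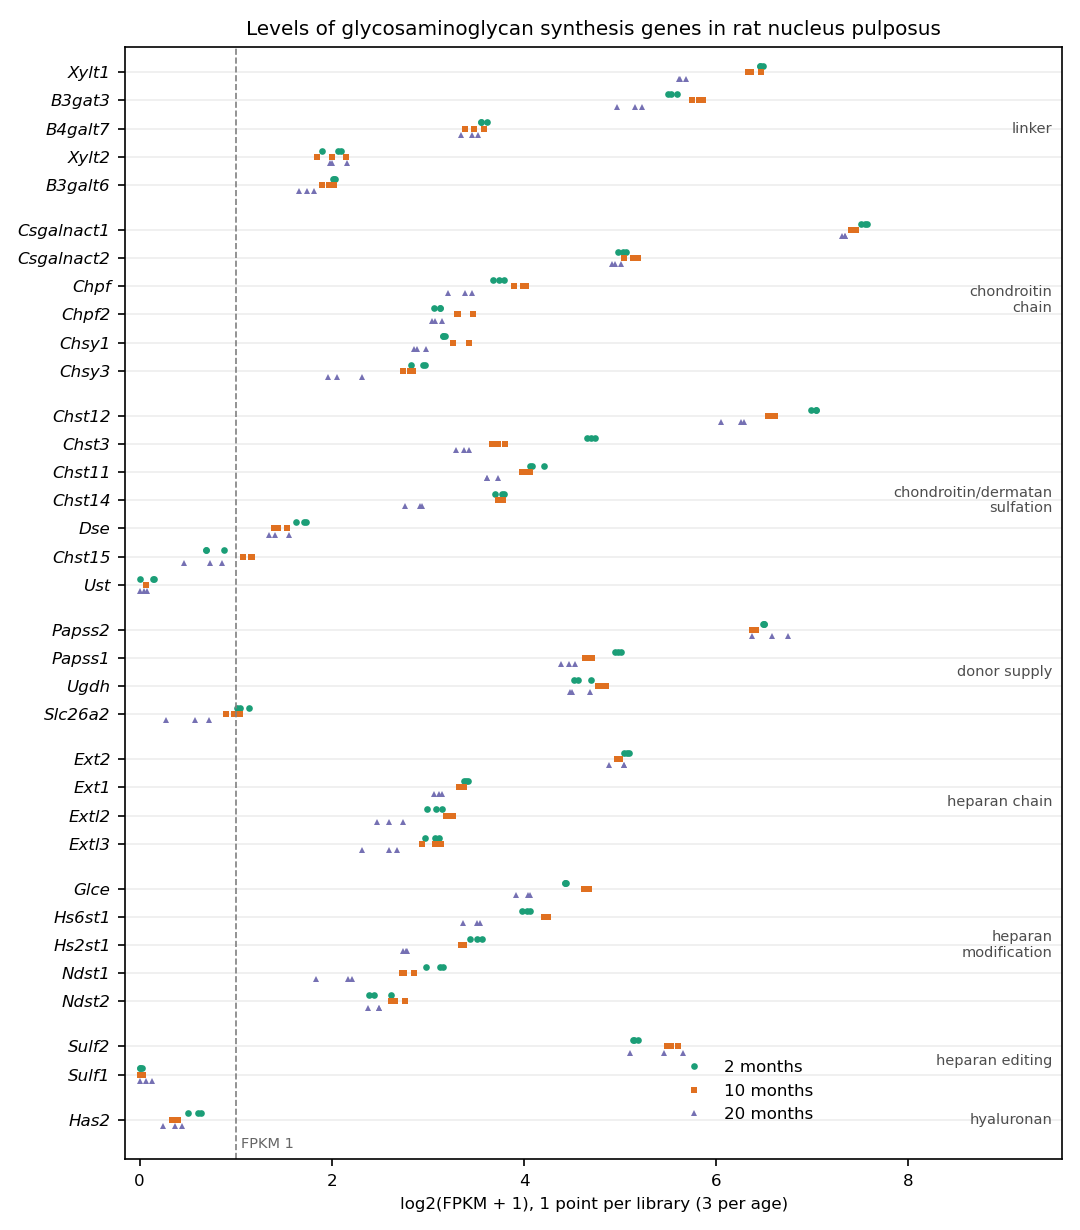
Levels of the 34 genes on the log2(FPKM + 1) axis, 1 point per library, with the 3 libraries of each age in 1 colour and shape and genes grouped by step. The dashed line marks FPKM 1, and Ust, Sulf1 and Has2 stay left of it in every library, while Csgalnact1 is the highest gene with means of 186, 171 and 160 FPKM at 2, 10 and 20 months.

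The libraries of the ages differ in more than these genes. Sequenced bases per library came to 4.77 to 5.04, 4.35 to 4.74 and 3.53 to 4.90 gigabases at 2, 10 and 20 months, and the commonest read length was 132, 132 and 141 bases. Ribosomal protein genes took 13.9 to 14.3%, 16.3 to 16.5% and 20.3 to 20.9% of the summed FPKM at 2, 10 and 20 months, and no identical libraries were found. Mitochondrial genes took 0.456 to 0.563%, 0.561 to 0.690% and 0.0868 to 0.111%. The median chi-square per gene between replicates was 0.566 to 0.662, 0.549 to 0.653 and 1.296 to 1.481, against 0.455 from counting noise. The median gene stood 0.20 lower on the log2 scale at 20 than at 2 months and 0.23 lower than at 10 months, so 20-month changes are also given after median-of-ratios scaling, which sets the median gene close to 0. Age cannot be told apart from these library properties. Of the nucleus pulposus and notochordal markers, 11 of 15 in the table could be tested, their summed level was 29912 to 31311, 26270 to 26693 and 26055 to 27412 FPKM at 2, 10 and 20 months, and Shh stayed below 0.1 FPKM. Summed red blood cell markers came to 83.9 to 94.2, 9.78 to 10.6 and 37.1 to 42.5 FPKM, with all 4 tested ones lower at 10 than at 2 months. Summed skeletal muscle markers (8 in the table) came to 30.5 to 32.9, 20.7 to 21.5 and 4.65 to 259 FPKM, the highest value being that of 20-month replicate 3. Summed annulus and tendon markers came to 14.7 to 16.1, 6.16 to 6.84 and 7.84 to 16.1 FPKM, macrophage and leukocyte markers to 22.7 to 23.5, 25.8 to 27.3 and 22.8 to 25.1 FPKM with Ptprc below 0.1 throughout, osteoclast markers to 15.9 to 16.8, 9.81 to 11.1 and 5.10 to 6.76 FPKM, and endothelial and pericyte markers to 2.00 to 2.51, 4.50 to 4.84 and 2.77 to 3.29 FPKM. The macrophage and annulus sums hide genes called in opposite directions by limma at 20 against 2 months, as deposited and after scaling. Csf1r rose (log2 0.61) and Cd68 fell (-0.75), and Prg4 rose (1.79) while Col1a1 (-1.84) and Scx (-0.72) fell. Of these, Csf1r (0.69), Prg4 (0.66) and Col1a1 (-2.41) were also called at 10 against 2 months. Prg4 lay below FPKM 1 in every 2-month library and passed the filter through the later ages, so its rises are given as a description. Summed hypertrophic cartilage and bone markers came to 6698 to 6777, 4927 to 5150 and 3392 to 4691 FPKM, nearly all Spp1. The osteoclast sums were mostly Acp5 (means 15.2, 8.73 and 4.94 FPKM at 2, 10 and 20 months), while Ctsk averaged 1.18, 1.60 and 1.13 FPKM. The endothelial and pericyte sums were mostly Pdgfrb (means 1.85, 4.16 and 2.05 FPKM). Vwf, below FPKM 1 throughout, averaged 0.276, 0.557 and 0.704 FPKM, highest at 20 months. The part of the marker genes in the results below was not tested, except that leaving out 20-month replicate 3 is reported. In bulk tissue, fewer cells of a type and less RNA per cell cannot be told apart.

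Between 2 and 10 months the farthest changes were the falls of Chst3 and Chst12, sulfotransferases of chondroitin. Of the 31 tested genes, 8 rose and 6 fell at 10 against 2 months in limma at a Benjamini-Hochberg adjusted p under 0.05, against 19.0% of all tested genes called higher and 11.4% called lower. Over the 29 genes at FPKM 1 or more in every library, 7 rose and 6 fell. After median-of-ratios scaling 5 rose and 7 fell in both sets, with 15.1% and 14.5% of all tested genes called. In 11 of the 31 genes every 10-month library lay above every 2-month one and in 10 below, against 32.3% and 21.5% of all tested genes (10 and 10 of the 29). Chst3, Chst12 and Papss1 fell, and Chpf2 and Glce rose, in that fit, under that scaling and in each of the 9 fits that left out 1 library. The other calls were each lost without at least 1 library, as given with each gene. The exception is Chst15, given only as a description, whose call was lost in 5 of these fits and after scaling. The count of genes that rose was 2 without 2-month replicate 1, 3 without 10-month replicate 1 or 2, 4 without 10-month replicate 3 and 5 without 2-month replicate 2 or 3. The count that fell was 3 without 2-month replicate 2, 10-month replicate 2 or 10-month replicate 3.

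At 20 months every call on the deposited values with all 9 libraries was downward. At 20 against 2 months none of the 31 genes rose in limma, also none at an unadjusted p under 0.05, and 21 fell, against 18.6% of all tested genes called higher and 49.6% called lower. After median-of-ratios scaling 6 rose and 16 fell, with 31.1% and 31.2% of all tested genes called. Over the 29 genes none rose and 20 fell, and after scaling 6 rose and 15 fell. The 15 of these 29 that fell under both scalings were Xylt1, B3gat3, Chsy3, Chpf, Chst3, Chst11, Chst12, Chst14, Papss1, Extl2, Extl3, Ndst1, Glce, Hs2st1 and Hs6st1, and each also did so in all 9 fits that left out 1 library. The median log2 change of the 31 genes was -0.38 as deposited and -0.17 after scaling, and that of all tested genes was -0.20 as deposited; over the 29 genes it was -0.38 and -0.17. In 23 of the 31 genes, and 22 of the 29, every 20-month library lay below every 2-month one and in none above, against 51.0% and 19.4% of all tested genes.

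At 20 against 10 months none rose in limma, 1 (Papss2) at an unadjusted p under 0.05, and 25 fell, against 11.4% of all tested genes called higher and 53.3% called lower. After scaling 4 rose and 14 fell, with 26.8% and 25.7% of all tested genes called. Over the 29 genes 23 fell and none rose, and after scaling 12 fell and 4 rose. The median log2 change of the 31 genes was -0.37 as deposited and -0.12 after scaling, and that of all tested genes was -0.23 as deposited; over the 29 genes it was -0.36 and -0.10. In 25 of the 31 genes, and 23 of the 29, every 20-month library lay below every 10-month one and in none above, against 55.3% and 12.6% of all tested genes. Without 20-month replicate 3, the library with high muscle markers, 20 of the 31 genes fell and 1, Papss2, rose at 20 against 2 months, and 25 fell and 1, Papss2, rose at 20 against 10 months. Both 20-month comparisons use the same 3 libraries, so their values are set side by side and not correlated.

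**Figure D2:**
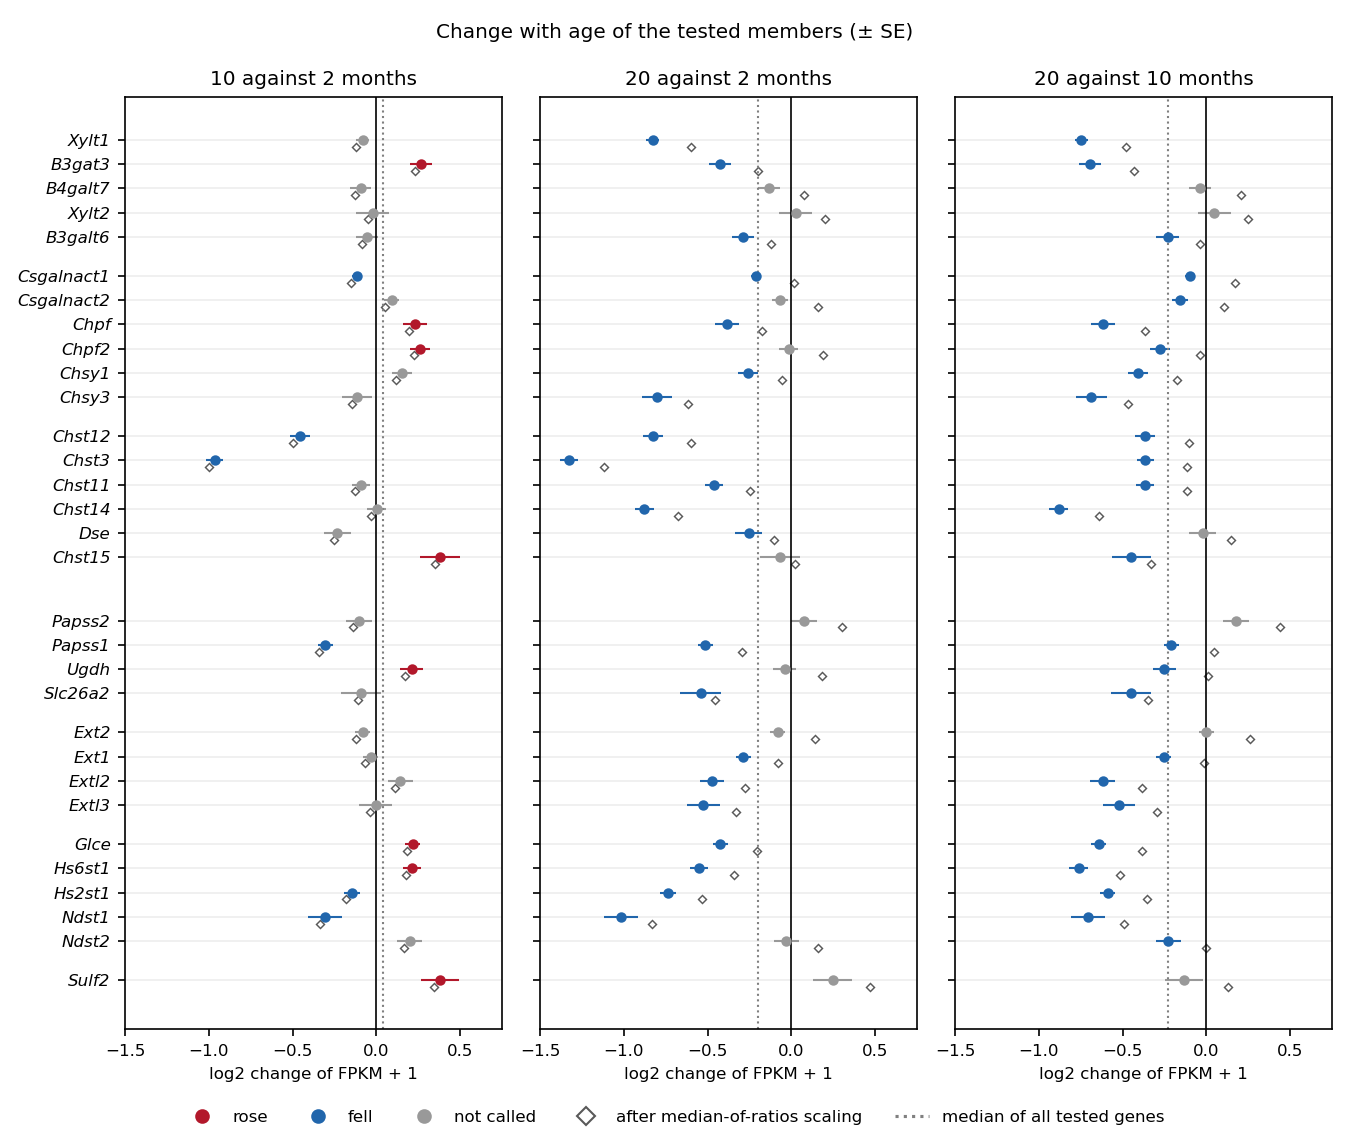
Log2 change of FPKM + 1 of the 31 tested genes in 3 comparisons (10 against 2, 20 against 2 and 20 against 10 months), with bars of ± 1 SE, red for genes that rose, blue for genes that fell and grey for those not called. Open diamonds show the change after median-of-ratios scaling and the dotted line the median of all tested genes. At 20 against 2 months 21 genes lie in blue, and Chst3 is farthest left at -1.33.

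The 34 genes lie on 16 chromosomes. In the coordinates of the gene table, whose genome build the sources used here do not name, Chst3 lies on chromosome 20 at 29731816 to 29738506 on the minus strand and Xylt1 on chromosome 1 at 187149453 to 187261632 on the plus strand. Chst14 lies on chromosome 3 at 110734105 to 110736162 on the plus strand and Hs2st1 on chromosome 2 at 250467429 to 250600517 on the minus strand. The sequence upstream of the start was taken from RefSeq on build GRCr8 for the 28 of 37 symbols that matched, 250 bases each. Of these 28, 25 are among the 34 genes, and the others are Chst7, Chst13 and Hs6st2. Ext1, Ext2, Extl3, Csgalnact1, Csgalnact2, Chst14, B3galt6, Sulf1 and Has2 had no match. The 28 windows had a median GC content of 66.2% (49.2 to 84.8%), against 51.2% over all 33469 windows of the table, and a median of 18 CpG, against 5. The GC box GGGCGG, searched on both strands, occurred in 18 of the 28 windows (64.3%), against 30.5% of all windows. The hypoxia response core ACGTG occurred in 10 (35.7%), against 16.6%, the CCAAT box in 8 (28.6%), against 34.0%, and TATAAA in 2 (7.1%), against 12.9%. The AP-1 letters TGANTCA occurred in none, against 6.3%. These are matches of letters in a window and not shown to be sites.

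These windows set 3 genes that fell at 20 months beside Papss2, which was not called there as deposited and rose after scaling. They run 5′ to 3′ along each gene's strand in lower case, and capitals mark the GC box (GGGCGG or its reverse complement) and the hypoxia response core (ACGTG or CACGT). The window of Chst3 is chr20:28694527-28694776 on the minus strand, that of Xylt1 chr1:181077972-181078221 on the plus strand, that of Hs2st1 chr2:236302134-236302383 on the minus strand and that of Papss2 chr1:239867463-239867712 on the plus strand, all GRCr8.
Chst3: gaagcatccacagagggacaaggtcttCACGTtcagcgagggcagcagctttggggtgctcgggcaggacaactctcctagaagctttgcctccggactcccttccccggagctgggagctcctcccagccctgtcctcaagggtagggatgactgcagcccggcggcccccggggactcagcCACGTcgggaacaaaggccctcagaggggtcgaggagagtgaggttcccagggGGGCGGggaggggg
Xylt1: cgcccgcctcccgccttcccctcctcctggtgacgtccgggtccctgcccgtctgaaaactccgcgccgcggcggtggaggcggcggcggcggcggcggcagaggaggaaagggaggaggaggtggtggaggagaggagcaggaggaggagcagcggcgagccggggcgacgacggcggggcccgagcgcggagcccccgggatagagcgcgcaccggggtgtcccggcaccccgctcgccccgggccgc
Hs2st1: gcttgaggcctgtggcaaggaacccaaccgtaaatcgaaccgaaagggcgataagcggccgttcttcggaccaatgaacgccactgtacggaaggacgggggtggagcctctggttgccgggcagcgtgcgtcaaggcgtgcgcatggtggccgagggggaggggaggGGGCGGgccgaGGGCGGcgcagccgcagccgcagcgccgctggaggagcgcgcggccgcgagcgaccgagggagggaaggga
Papss2: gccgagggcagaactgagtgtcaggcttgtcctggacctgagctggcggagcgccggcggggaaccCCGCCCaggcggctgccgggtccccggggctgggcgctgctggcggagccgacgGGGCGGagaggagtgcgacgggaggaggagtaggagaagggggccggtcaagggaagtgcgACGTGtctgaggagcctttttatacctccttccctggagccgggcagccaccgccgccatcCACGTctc
The windows of Chst3 and Papss2 each hold 2 matches to the hypoxia response core and those of Xylt1 and Hs2st1 none. Any link between these letters and the changes with age was not tested. Hs2st1 and Papss2 each hold 2 GC boxes, Chst3 holds 1, and Xylt1, with 36 CpG in 250 bases, holds none.

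The linker is built by 5 enzymes, all tested. At 10 against 2 months 1 rose and none fell, and at 20 against 2 months none rose and 3 fell (2 fell and none rose after scaling). Of all tested genes 19.0% were called higher and 11.4% lower at 10 against 2 months. For 20 against 2 months these shares were 18.6% and 49.6%, or 31.1% and 31.2% after scaling. Xylt1, a xylosyltransferase that starts the linker, had 48.5, 47.9 and 50.5 FPKM at 20 months, against 89.1, 86.9 and 87.0 FPKM at 2 months. At 10 months it had 81.4, 79.6 and 87.5 FPKM. All 3 libraries of 20 months lay below all others, while 2 and 10 months overlapped. The change at 20 against 2 months was -0.83 on the log2 scale (SE 0.04, limma adjusted p = 4.3e-07), or -0.60 after scaling. At 20 against 10 months it was -0.75 (SE 0.04, adjusted p = 1.79e-06), or -0.48 after scaling.

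B3gat3, the glucuronyltransferase that completes the linker, had 44.3, 45.4 and 47.2 FPKM at 2 months, 57.2, 55.4 and 52.8 FPKM at 10 months and 34.8, 36.4 and 30.2 FPKM at 20 months. It was highest at 10 months and lowest at 20 months, with no overlap between any pair of ages. It rose by 0.27 on the log2 scale at 10 against 2 months (SE 0.07, adjusted p = 0.0147), a call that was lost without 2-month replicate 1 (adjusted p = 0.0546) or 10-month replicate 1 (0.0574). At 20 against 10 months it fell by 0.69 (SE 0.07, adjusted p = 2.74e-05; -0.43 after scaling). B3galt6, which adds the second galactose, averaged 2.33 ± 0.179 FPKM at 20 months and 3.07 ± 0.0189 FPKM at 2 months (SD, n = 3 each). Its fall at 20 against 2 months (log2 -0.29, adjusted p = 0.00375) was not called after scaling (-0.12, adjusted p = 0.138). Xylt2, the second xylosyltransferase, averaged 3.07, 3.01 and 3.14 FPKM at 2, 10 and 20 months and was not called in any comparison. B4galt7, which adds the first galactose, averaged 10.9, 10.2 and 9.87 FPKM and was called only after scaling, as a rise at 20 against 10 months (0.20, adjusted p = 0.022).

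The chondroitin chain is started and extended by 6 tested genes. At 10 against 2 months 2 rose and 1 fell, and at 20 against 2 months none rose and 4 fell (2 rose and 2 fell after scaling). At 20 against 10 months all 6 fell as deposited, whereas after scaling 3 fell and 1, Csgalnact1, rose. The shares of all tested genes called higher and lower were 19.0% and 11.4% at 10 against 2 months. They were 18.6% and 49.6% at 20 against 2 months (31.1% and 31.2% after scaling). For 20 against 10 months they were 11.4% and 53.3% (26.8% and 25.7% after scaling). The most abundant gene of all 34 was Csgalnact1, which adds the first N-acetylgalactosamine and so commits the linker to chondroitin. It had 187, 189 and 181 FPKM at 2 months, 175, 171 and 168 FPKM at 10 months and 162, 157 and 161 FPKM at 20 months. No ages overlapped. The size of its changes was small: log2 -0.12 at 10 against 2 months (SE 0.03, limma adjusted p = 0.0164) and -0.21 at 20 against 2 months (SE 0.03, adjusted p = 0.00018). The first call was lost without 2-month replicate 1 or 2 or 10-month replicate 2 or 3 (adjusted p = 0.0581 to 0.07). The second became 0.02 after scaling, and the fall at 20 against 10 months (-0.10) became a rise of 0.17 after scaling and was lost without 10-month replicate 1 (adjusted p = 0.0708).

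Chsy3, a chondroitin synthase that extends the chain, had 6.85, 6.08 and 6.72 FPKM at 2 months, 6.18, 6.03 and 5.68 FPKM at 10 months and 3.16, 2.90 and 3.98 FPKM at 20 months. All 20-month libraries lay below the others. It fell by 0.80 on the log2 scale at 20 against 2 months (SE 0.09, adjusted p = 5.45e-05; -0.62 after scaling) and by 0.69 at 20 against 10 months (SE 0.09, adjusted p = 0.000193; -0.47 after scaling). Its paralog Chsy1 averaged 7.98 ± 0.0861 FPKM at 2 months, 8.99 ± 0.674 FPKM at 10 months and 6.51 ± 0.331 FPKM at 20 months (SD, n = 3 each), and its fall at 20 against 2 months (log2 -0.26) was -0.06 and not called after scaling.

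Chpf, a polymerizing factor that works with the synthases, had 12.4, 12.9 and 11.8 FPKM at 2 months, 13.9, 15.2 and 14.8 FPKM at 10 months and 10.0, 8.24 and 9.47 FPKM at 20 months. It was highest at 10 months, and no ages overlapped. Its fall at 20 against 10 months was 0.62 (SE 0.07, adjusted p = 8e-05; -0.37 after scaling). Its rise at 10 against 2 months (0.23, adjusted p = 0.0359) was not called after scaling (adjusted p = 0.0571) and was lost without any single 2-month library or 10-month replicate 2 or 3 (adjusted p = 0.0543 to 0.115). Chpf2, its relative, averaged 7.59, 9.30 and 7.50 FPKM at 2, 10 and 20 months and rose at 10 against 2 months (log2 0.26, adjusted p = 0.00914). At 20 against 2 months it was not called as deposited (-0.02) and was called as a rise of 0.19 after scaling. Csgalnact2, the second starter of the chain, averaged 31.6, 33.7 and 30.1 FPKM. Its fall at 20 against 10 months (log2 -0.16, adjusted p = 0.0157) was lost without 10-month replicate 2 (adjusted p = 0.064) and turned to 0.10 after scaling.

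Under the sulfation of chondroitin and dermatan 9 genes are listed, including Dse, an epimerase that places no sulfate. Of these 9, 7 were in the table and 6 were tested. Their summed level was 182 to 188 FPKM at 2 months, 135 to 140 FPKM at 10 months and 94.98 to 106 FPKM at 20 months, so that no library of one age reached the range of another. Of the 5 without Chst15, none rose and 2 fell at 10 against 2 months, and 5 fell and none rose at 20 against 2 months (4 fell and none rose after scaling). Among all tested genes 19.0% were called higher and 11.4% lower at 10 against 2 months. For 20 against 2 months these shares were 18.6% and 49.6%, or 31.1% and 31.2% after scaling. Chst3, the chondroitin 6-O-sulfotransferase, had 12.3, 12.9 and 11.7 FPKM at 10 months, against 24.2, 25.0 and 25.6 FPKM at 2 months. At 20 months it had 9.77, 8.81 and 9.42 FPKM. Its mean dropped by 50.7% at 10 against 2 months and by 62.6% at 20 against 2 months, and every library of a later age lay below every library of an earlier one. On the log2 scale the change was -0.97 at 10 against 2 months (SE 0.05, limma adjusted p = 1.29e-05; -0.998 after scaling) and -1.33 at 20 against 2 months (SE 0.05, adjusted p = 1.27e-07; -1.12 after scaling). These were the farthest falls among the 31 genes in each of those comparisons. At 20 against 10 months the change was -0.36 (adjusted p = 0.000293), and -0.12 after scaling, where it was not called.

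Chst12, the most abundant 4-O-sulfotransferase here, had 131, 126 and 131 FPKM at 2 months, 91.9, 92.7 and 97.2 FPKM at 10 months and 75.5, 77.5 and 65.1 FPKM at 20 months. The ages did not overlap. The change was -0.46 at 10 against 2 months (SE 0.06, adjusted p = 0.000697; -0.50 after scaling) and -0.83 at 20 against 2 months (SE 0.06, adjusted p = 3.64e-06; -0.60 after scaling). The change at 20 against 10 months was -0.37 (adjusted p = 0.00065), and -0.10 and not called after scaling (adjusted p = 0.175). Chst11, which places the same sulfate, averaged 16.4 ± 0.950 FPKM at 2 months, 15.3 ± 0.456 FPKM at 10 months and 11.6 ± 0.572 FPKM at 20 months (SD, n = 3 each). It was not called at 10 against 2 months (log2 -0.09, adjusted p = 0.217) and fell at 20 against 2 months (-0.46, adjusted p = 6.18e-05; -0.25 after scaling).

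Chst14, the dermatan 4-O-sulfotransferase, had 12.9, 11.9 and 12.7 FPKM at 2 months, 12.7, 12.3 and 12.5 FPKM at 10 months and 6.57, 6.68 and 5.79 FPKM at 20 months. The libraries of 2 and 10 months overlapped, and those of 20 months lay below both. The change was 0.00 at 10 against 2 months (SE 0.06, adjusted p = 0.984) and -0.88 at 20 against 2 months (SE 0.06, adjusted p = 1.8e-06; -0.68 after scaling). At 20 against 10 months it was -0.88 too (SE 0.06, adjusted p = 4.18e-06; -0.64 after scaling), the farthest fall of the 31 genes in that comparison. Dse, the epimerase that turns chondroitin into dermatan, averaged 2.23, 1.75 and 1.71 FPKM at 2, 10 and 20 months. Its fall at 20 against 2 months (log2 -0.25, adjusted p = 0.0192) was not called after scaling (-0.10) and was lost without 2-month replicate 1 or 2 or 20-month replicate 3 (adjusted p = 0.057 to 0.0642).

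Chst15, which adds a second sulfate to an already 4-O-sulfated sugar, was highest at 10 months, with 1.23, 1.11 and 1.25 FPKM, against 0.611, 0.620 and 0.835 FPKM at 2 months. At 20 months it had 0.665, 0.373 and 0.813 FPKM. The 10-month libraries lay above all others, those of 2 and 20 months overlapped, and the filter let the gene in through the 10-month values. Its log2 change was 0.38 at 10 against 2 months and -0.45 at 20 against 10 months (-0.33 after scaling). Ust, the uronyl 2-O-sulfotransferase, had at most 0.113 FPKM in any library.

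**Figure D3:**
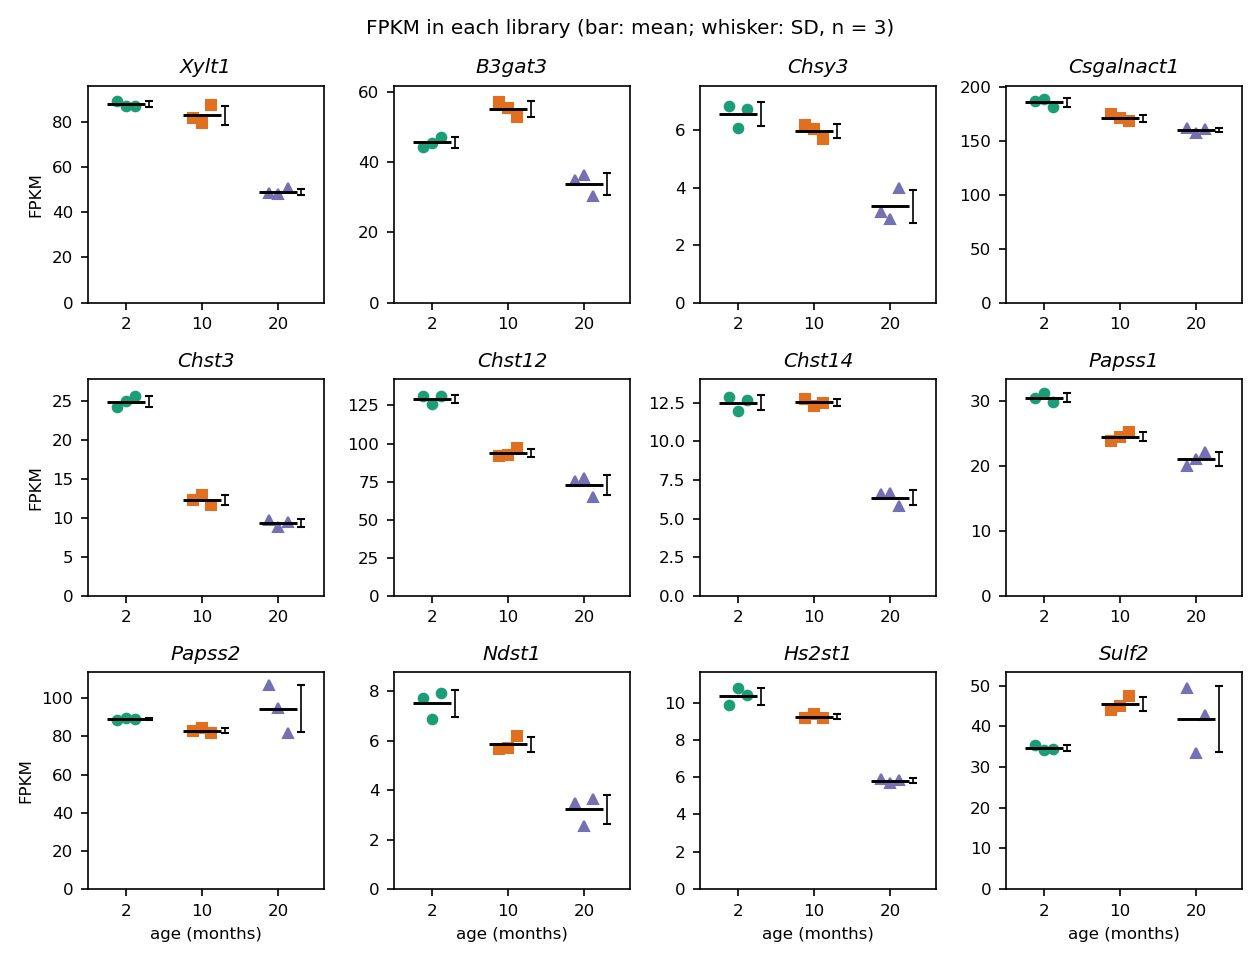
FPKM of 12 of the genes in each library at 2, 10 and 20 months, with the mean as a bar and the SD of the 3 libraries as a whisker, each panel starting at 0. Chst3 drops between 2 and 10 months and Chst14 between 10 and 20 months, while Papss2 and Sulf2 spread widely among the 20-month libraries.

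The sugar and sulfate donors are supplied by 4 tested genes. Of the 3 without Slc26a2, 1 rose and 1 fell at 10 against 2 months, and at 20 against 2 months none rose and 1 fell (2 rose and 1 fell after scaling). The shares of all tested genes called higher and lower were 19.0% and 11.4% at 10 against 2 months. They were 18.6% and 49.6% at 20 against 2 months, or 31.1% and 31.2% after scaling. Papss1, a synthase of the sulfate donor PAPS, had 30.4, 31.2 and 29.8 FPKM at 2 months, 23.8, 24.5 and 25.1 FPKM at 10 months and 20.0, 21.1 and 22.1 FPKM at 20 months. It stepped down without overlap, by log2 -0.30 at 10 against 2 months (SE 0.04, limma adjusted p = 0.00111; -0.34 after scaling) and -0.51 at 20 against 2 months (SE 0.04, adjusted p = 9.12e-06; -0.29 after scaling). Its fall at 20 against 10 months (-0.21) turned to 0.05 after scaling.

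Papss2, the more abundant PAPS synthase, had 88.7, 89.7 and 89.3 FPKM at 2 months, 82.9, 84.2 and 81.9 FPKM at 10 months and 107, 94.8 and 82.0 FPKM at 20 months. The 20-month libraries spread across the values of both other ages. As deposited it was not called at 20 against 2 months (log2 0.07, SE 0.08, adjusted p = 0.419), and after scaling it rose by 0.30 (adjusted p = 0.00541). Without 20-month replicate 3, its lowest library, it rose by 0.17 as deposited at 20 against 2 months (adjusted p = 0.0125) and by 0.27 at 20 against 10 months (adjusted p = 0.00137).

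Slc26a2, the sulfate transporter whose human mutations cause skeletal dysplasias, had 1.02, 1.20 and 1.06 FPKM at 2 months, 1.07, 0.859 and 0.972 FPKM at 10 months and 0.208, 0.493 and 0.648 FPKM at 20 months. The 20-month libraries lay below the rest. The filter let it in through the younger ages. Its log2 change was -0.54 at 20 against 2 months (-0.46 after scaling), a value that understates the change of a gene this low. Ugdh, which makes UDP-glucuronic acid, averaged 23.2, 27.0 and 22.5 FPKM at 2, 10 and 20 months. Its rise at 10 against 2 months (0.21, adjusted p = 0.0435) was not called after scaling (adjusted p = 0.0907) and was lost without 2-month replicate 1 or 3 or any single 10-month library (adjusted p = 0.074 to 0.138). At 20 against 2 months it was -0.04 as deposited and rose by 0.18 after scaling.

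Under the start and extension of heparan chains 4 genes are listed, including Extl2, which acts on the linker. None was called at 10 against 2 months in limma, and none had an unadjusted p under 0.05. By 20 months 3 had fallen against 2 months and none had risen (2 fell and 1 rose after scaling). Of all tested genes 19.0% were called higher and 11.4% lower at 10 against 2 months. For 20 against 2 months these shares were 18.6% and 49.6%, or 31.1% and 31.2% after scaling. Extl3, which starts the heparan chain, had 6.84, 7.44 and 7.66 FPKM at 2 months, 7.42, 6.67 and 7.79 FPKM at 10 months and 3.97, 5.40 and 5.03 FPKM at 20 months. All 20-month libraries lay below the others. It fell by 0.53 on the log2 scale at 20 against 2 months (SE 0.10, limma adjusted p = 0.00115; -0.33 after scaling) and by 0.52 at 20 against 10 months (SE 0.10, adjusted p = 0.00139; -0.29 after scaling). Extl2, a related transferase that acts on the linker, had 6.97, 7.51 and 7.87 FPKM at 2 months, 8.25, 8.60 and 8.14 FPKM at 10 months and 4.55, 5.04 and 5.69 FPKM at 20 months. It was lowest at 20 months, with no overlap between ages, and fell by 0.62 at 20 against 10 months (SE 0.07, adjusted p = 0.000103; -0.39 after scaling).

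Ext1 and Ext2 form the polymerase that extends heparan sulfate. Ext2, the more abundant of the pair, had 31.9, 33.1 and 32.6 FPKM at 2 months, 30.4, 30.7 and 31.0 FPKM at 10 months and 31.9, 31.8 and 28.5 FPKM at 20 months. It was not called as deposited at 20 against 2 months (log2 -0.08, adjusted p = 0.142), and after scaling it rose by 0.14 (adjusted p = 0.0198). Ext1 averaged 9.52, 9.28 and 7.62 FPKM at 2, 10 and 20 months, and its fall at 20 against 2 months (-0.29, adjusted p = 0.000332) was -0.08 and not called after scaling.

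The heparan chain is modified by 5 tested enzymes. Their summed level was 57.1 to 59.3 FPKM at 2 months, 61.8 to 62.9 FPKM at 10 months and 37.5 to 40.5 FPKM at 20 months. At 10 against 2 months 2 rose and 2 fell. At 20 against 2 months 4 fell and none rose under both scalings, and at 20 against 10 months 5 fell as deposited and 4 after scaling. The shares of all tested genes called higher and lower were 19.0% and 11.4% at 10 against 2 months. They were 18.6% and 49.6% at 20 against 2 months (31.1% and 31.2% after scaling). For 20 against 10 months they were 11.4% and 53.3% (26.8% and 25.7% after scaling). Ndst1, a bifunctional enzyme that removes acetyl groups and puts sulfate on the exposed nitrogen, had 7.75, 6.87 and 7.92 FPKM at 2 months, 5.66, 5.73 and 6.21 FPKM at 10 months and 3.50, 2.56 and 3.63 FPKM at 20 months. It stepped down at each age without overlap. The change was -1.02 at 20 against 2 months (SE 0.10, limma adjusted p = 2.48e-05; -0.83 after scaling) and -0.71 at 20 against 10 months (SE 0.10, adjusted p = 0.000303; -0.49 after scaling). Its fall at 10 against 2 months (-0.31, adjusted p = 0.0481) was lost without any single library of those ages (adjusted p = 0.0546 to 0.138). Ndst2 has the same activities and averaged 4.59, 5.40 and 4.47 FPKM at 2, 10 and 20 months. It was not called at 20 against 2 months (-0.03; 0.16 after scaling), and its fall at 20 against 10 months (-0.23, adjusted p = 0.0246) was -0.00 after scaling and was lost without 10-month replicate 2 or 3 or 20-month replicate 1 (adjusted p = 0.0508 to 0.0895).

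Hs2st1, which sulfates the uronic acid at its 2-O position, had 9.86, 10.8 and 10.4 FPKM at 2 months, 9.18, 9.41 and 9.16 FPKM at 10 months and 5.91, 5.66 and 5.86 FPKM at 20 months. Its 3 libraries of 20 months were close together and far below the others. It fell by 0.74 at 20 against 2 months (SE 0.05, adjusted p = 1.56e-06; -0.53 after scaling). Its fall at 10 against 2 months (-0.15, adjusted p = 0.0435) was lost without 2-month replicate 2 or 3 or any single 10-month library (adjusted p = 0.0855 to 0.153).

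Glce, the epimerase that makes iduronic acid in heparan, and Hs6st1, a heparan 6-O-sulfotransferase, were highest at 10 months. Glce had 20.5, 20.6 and 20.6 FPKM at 2 months, 23.9, 23.7 and 24.7 FPKM at 10 months and 14.1, 15.4 and 15.7 FPKM at 20 months. It rose by 0.22 at 10 against 2 months (SE 0.04, adjusted p = 0.0064; 0.18 after scaling) and fell by 0.64 at 20 against 10 months (SE 0.04, adjusted p = 5.83e-06; -0.39 after scaling). Hs6st1 had 14.8, 15.8 and 15.3 FPKM at 2 months, 18.0, 18.0 and 17.5 FPKM at 10 months and 10.4, 9.27 and 10.7 FPKM at 20 months. It fell by 0.76 at 20 against 10 months (SE 0.05, adjusted p = 6.25e-06; -0.52 after scaling). Its rise at 10 against 2 months (0.21, adjusted p = 0.0176) was lost without 2-month replicate 1 or 3 or 10-month replicate 1 or 2 (adjusted p = 0.051 to 0.0677). For both genes the 3 ages did not overlap.

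Sulf1 and Sulf2 remove 6-O-sulfates from finished heparan chains outside the cell. Sulf1 had at most 0.0933 FPKM in any library. Sulf2 had 35.5, 34.2 and 34.5 FPKM at 2 months, 44.1, 45.1 and 47.5 FPKM at 10 months and 49.4, 33.4 and 42.9 FPKM at 20 months. The 10-month libraries all lay above the 2-month ones, and the 20-month libraries spread over both. It rose by 0.38 at 10 against 2 months (SE 0.11, limma adjusted p = 0.0334; 0.34 after scaling), a call that was lost without any single library of those ages (adjusted p = 0.0687 to 0.0978). It was not called as deposited at 20 against 2 months (0.25, adjusted p = 0.0834), rose by 0.47 after scaling, and rose by 0.40 as deposited without 20-month replicate 2 (adjusted p = 0.000691). Without 20-month replicate 1 it fell at 20 against 10 months (-0.26, adjusted p = 0.0345), where with all libraries it was -0.14 and not called (0.13 after scaling, not called either).

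Has2, a hyaluronan synthase at the cell surface, had 0.422, 0.519 and 0.561 FPKM at 2 months, 0.261, 0.316 and 0.273 FPKM at 10 months and 0.292, 0.182 and 0.358 FPKM at 20 months. The 2-month libraries were the highest, and those of 10 and 20 months overlapped. An estimated 12 to 42 fragments lay behind each of these values, and the gene was below the level needed for the test.

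Ratios between paired genes do not move with the scaling of a library beyond the pseudocount of 1. Of 12 pairs listed, 10 had both members at a mean of 1 FPKM or more, and each was compared over the 3 ages with an exact permutation test over the 1680 assignments of 9 libraries (smallest possible p = 0.00357). All 10 pairs had an adjusted p under 0.05 over the 10 tests. The smallest p was reached by 3 of them (adjusted p = 0.0119 each), and their ages did not overlap. The log2 ratio of Papss2 over Papss1 was 1.52 ± 0.0300, 1.72 ± 0.0491 and 2.11 ± 0.257 at 2, 10 and 20 months (SD, n = 3 each). That of Ndst1 over Ndst2 was 0.61 ± 0.120, 0.10 ± 0.10 and -0.38 ± 0.240, so the more abundant N-sulfotransferase transcript per length was Ndst1 at 2 months and Ndst2 at 20 months. Ext1 over Ext2 was -1.67 ± 0.0223, -1.63 ± 0.0193 and -1.88 ± 0.0505.

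Among chondroitin sulfotransferases, Chst3 over Chst11 stood at 0.58, -0.29 and -0.29 on the log2 scale at 2, 10 and 20 months (exact permutation p = 0.0357, adjusted p = 0.0357). Its 2-month libraries lay apart, and those of 10 and 20 months overlapped. Chst11 over Chst12 stood at -2.91, -2.54 and -2.54 (exact permutation adjusted p = 0.0357), a call lost without 2-month replicate 2 (0.0571) or 3 (0.0786) or 10-month replicate 1 (0.0516). Xylt1 over Xylt2 stood at 4.45, 4.39 and 3.59, and Chpf over Chpf2 at 0.64, 0.61 and 0.27 (exact permutation adjusted p = 0.0312 each), with 20 months apart from the other ages in both. Chsy1 over Chsy3 stood at 0.25, 0.52 and 0.79 (exact permutation adjusted p = 0.0179).

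For the starters of the chains, Csgalnact1 over Csgalnact2 stood at 2.52, 2.31 and 2.37 on the log2 scale at 2, 10 and 20 months (exact permutation adjusted p = 0.0238), and was lost without 2-month replicate 1 (0.05). Csgalnact1 over Extl3, the start of chondroitin against the start of heparan, stood at 4.49, 4.38 and 4.80 (exact permutation adjusted p = 0.0214). That call was lost with a pseudocount of 5 (adjusted p = 0.0536) and without 2-month replicate 2, 10-month replicate 1 or 3 or 20-month replicate 1 (0.05 to 0.0536). The same ratios were not computed over all pairs of genes, so no background stands beside these 10.

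**Figure D4:**
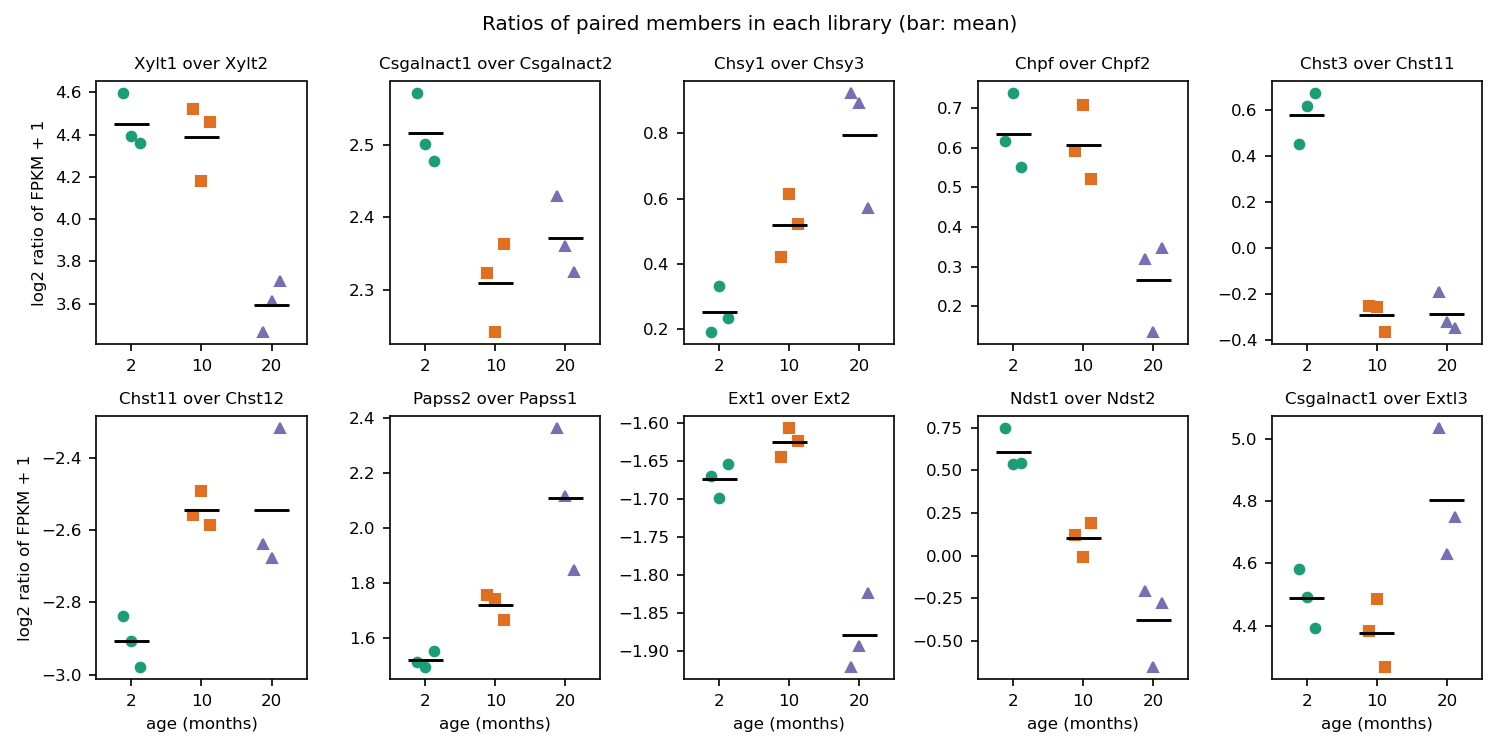
Log2 ratio of FPKM + 1 for the 10 pairs, 1 point per library at 2, 10 and 20 months, with the mean of each age as a bar; the vertical axes differ between panels. The ages stand apart for Papss2 over Papss1, Ext1 over Ext2 and Ndst1 over Ndst2, whereas Chst3 over Chst11 separates 2 months, mean 0.58, from both later ages.

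The isoform file lists 1 transcript for 24 of the 34 genes and 2 for the other 10. Isoform shares could be tested for Extl3, Extl2 and Chpf2, and limma called none in any of the 3 comparisons, none having an unadjusted p under 0.05, against 0.253%, 10.8% and 6.98% of the 2765 tested isoforms at 10 against 2, 20 against 2 and 20 against 10 months.

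Other genes needed for the same chains were counted from a list of 39 further synthesis genes, with 21 tested rows. At 20 against 2 months none rose and 18 fell (2 rose and 11 fell after scaling), against 18.6% and 49.6% of all tested genes called higher and lower (31.1% and 31.2% after scaling). Chst5 reached FPKM 1 in 3 libraries, all of 10 months, and Slc26a6 in 4, none of them from 20 months. Both are among the 18 and passed the filter only through ages where they are high, so their falls are given as a description. After scaling Slc26a6 is still among the 11, and Chst5 was not called. Slc35d1, which carries UDP-sugars into the endoplasmic reticulum, averaged 27.7 ± 0.688 FPKM at 20 months and 40.6 ± 0.0979 FPKM at 2 months (SD, n = 3 each), a log2 change of -0.54 (limma adjusted p = 2.24e-06; -0.32 after scaling). Fam20b, the kinase that phosphorylates the linker xylose, averaged 39.8 ± 1.83 FPKM at 20 months and 61.2 ± 1.89 FPKM at 2 months, and fell by 0.61 (adjusted p = 2.79e-06; -0.38 after scaling). Slc35b2, which carries PAPS into the Golgi, averaged 15.1 ± 1.25 FPKM at 20 months and 25.6 ± 0.645 FPKM at 2 months, and fell by 0.73 (adjusted p = 4.82e-06; -0.51 after scaling). B4galt1, a galactosyltransferase, fell by 0.84 (adjusted p = 5.11e-06; -0.63 after scaling).

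The core proteins that carry the chains were counted from 36 genes, of which 20 were tested. Of these, 4 rose and 8 fell at 10 against 2 months, and at 20 against 2 months 3 rose and 12 fell (5 rose and 10 fell after scaling). Thbd, among the 4, passed the filter through the 10-month libraries, where it is high, so its rise is given as a description. Over all tested genes 19.0% were called higher and 11.4% lower at 10 against 2 months. For 20 against 2 months these shares were 18.6% and 49.6%, or 31.1% and 31.2% after scaling. Sdc3, a cell-surface heparan sulfate proteoglycan, averaged 188 ± 1.64 FPKM at 2 months, 116 ± 2.19 FPKM at 10 months and 66.4 ± 3.21 FPKM at 20 months (SD, n = 3 each), a log2 change of -1.49 at 20 against 2 months (limma adjusted p = 1.8e-08; -1.26 after scaling). Cspg4, a chondroitin sulfate proteoglycan of the cell surface, averaged 23.3 ± 0.137, 12.9 ± 0.206 and 12.7 ± 0.542 FPKM at 2, 10 and 20 months. It fell by 0.81 at 10 against 2 months (adjusted p = 7.64e-06), and at 20 against 10 months it was -0.01 and not called as deposited and rose by 0.24 after scaling. Sdc2 fell by 0.62 at 20 against 2 months (adjusted p = 8.8e-07; -0.39 after scaling), and Nrp1, a receptor that can carry a chain, fell by 1.27 (adjusted p = 1.17e-07; -1.09 after scaling). The 3 that rose at 20 against 2 months, named after their values were seen, were Dcn, Gpc3 and Agrn. Dcn encodes decorin, a small proteoglycan of the matrix. It had 13.8, 19.7 and 66.4 FPKM at 20 months, against 2.40, 1.56 and 2.09 FPKM at 2 months, the highest value being that of the library with high muscle markers. It rose by 3.19 on the log2 scale (SE 0.45, adjusted p = 0.00022; 3.40 after scaling), and by 2.55 without that library. Gpc3, a glypican of the cell surface, averaged 2044 ± 99.9 FPKM at 20 months and 1817 ± 50.4 FPKM at 2 months (SD, n = 3 each), and rose by 0.17 (adjusted p = 0.00429; 0.40 after scaling). Agrn, a heparan sulfate proteoglycan of basement membranes, averaged 2.59 ± 0.485 FPKM at 20 months and 1.87 ± 0.119 FPKM at 2 months. It rose by 0.31 (adjusted p = 0.0193; 0.47 after scaling), a call lost without 2-month replicate 2 or 20-month replicate 1 or 3 (adjusted p = 0.0617 to 0.0629).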

How the data were processed

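The authors deposited FPKM per gene, and FPKM and read coverage per isoform, for 9 input libraries of rat nucleus pulposus, per the file headers. Per the submitters' processing notes, the tools included cutadapt 1.9, HISAT2 2.0.4 and StringTie 1.3.4d, with no role given for each; no genome build is named in the sources used here. The tables hold no counts. Bases per library and fragments per gene were estimated from the deposited coverage signal, and intervals from counting are not given.

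The 11708 genes reaching FPKM 1 in 3 or more of the 9 libraries were fitted by limma 3.58.1 under R 4.3.3 (trended empirical Bayes) on log2(FPKM + 1) in 1 model over the 9 libraries, and p-values were adjusted over all of them by Benjamini-Hochberg. Fold changes are on that scale and so understate changes of weakly expressed genes. Every adjusted p is from limma except for ratios, which used exact permutation tests over libraries. Isoform shares were fitted with limma on log2 ratios with 0.5 added. The fit was tested on simulated data. Alternatives were pseudocounts of 0.1 and 5, no filter, median-of-ratios scaling, only the 2 ages compared, array weights, a replicate block, and leaving out each library.

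Values in every library are given for genes called with an absolute log2 change of at least 0.5, for Has2 and for the highest gene of each step. From the lists of further synthesis, core protein, breakdown, hyaluronan-binding and nucleus pulposus marker genes, up to 4 called genes with the smallest adjusted p are named. Other marker lists are given as sums, and the few of their genes with values were named after these were seen. The genes and lists were chosen with earlier results of these data known. Deviations of same-numbered libraries correlated at -0.04 to 0.05 and those of other-numbered ones at -0.07 to 0.06. No shared deviation was found, which does not tell whether the numbers pair the libraries. Upstream sequences came from RefSeq (GRCr8).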

Additional observations from a re-analysis of the deposited data

How the results depend on the processing

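After median-of-ratios scaling, which shifts the median gene by -0.03, 0.20 and 0.23 on the log2 scale at 10 against 2, 20 against 2 and 20 against 10 months, 5 genes of the 31 rose at 10 against 2 months, 6 at 20 against 2 months and 4 at 20 against 10 months, and 14 fell at 20 against 10 months. Over all tested genes 3646 were then higher and 3658 lower at 20 against 2 months, against 2175 and 5811 as deposited, and 3142 higher and 3009 lower at 20 against 10 months, against 1339 and 6237 as deposited. Turns of sign are given for the 31 genes and the others named elsewhere, where a change was called as deposited or after scaling. The sign turned at 20 against 2 months for Csgalnact1 (0.0172), Csgalnact2 (0.16), Chpf2 (0.19), Ugdh (0.18) and Ext2 (0.14), and at 20 against 10 months for B4galt7 (0.20), Csgalnact1 (0.17), Csgalnact2 (0.10), Papss1 (0.0479), Ugdh (0.00737), Krt19 (0.11), Gpc3 (0.0987) and Cspg4 (0.24). Further genes of the lists turned too, such as Acan (0.16) and Tbxt (0.11) at 20 against 2 months and Hexa (0.17) at 20 against 10 months. The scaling lifts every 20-month value by construction. With no filter 5 of the 31 genes rose at 10 against 2 months, and with array weights 1 rose at 20 against 10 months. The cause was not tested.

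Leaving out each of the 9 libraries gave 2 to 8 genes that rose and 3 to 7 that fell at 10 against 2 months, 0 to 1 and 20 to 21 at 20 against 2 months, and 0 to 1 and 23 to 25 at 20 against 10 months. Over all genes it gave 1573 to 2511 higher and 928 to 1565 lower at 10 against 2 months, 1944 to 2138 and 5329 to 5872 at 20 against 2 months, and 1191 to 1337 and 5702 to 6284 at 20 against 10 months. The isoform calls stayed at 0, and 8 to 10 ratios passed. For 1453 of 1563 single values and list counts under the other alternatives, the call stayed the same or the count stayed close. Values not called in either setting count among these even if their sign turned, as for Ndst2 at 20 against 2 months (-0.03, and 0.16 after scaling). No change called with or without a library changed sign when that library was left out. Replicate numbers are not known to pair the libraries; with a replicate block 6 rose and 5 fell at 10 against 2 months, 21 fell at 20 against 2 months and 25 at 20 against 10 months. Few fragments limit Chst15, Slc26a2, Ust, Sulf1 and Has2.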

Other observations

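Enzymes that break glycosaminoglycans down were counted from 24 genes with 18 tested rows. Of these, 2 rose and 6 fell at 10 against 2 months, and at 20 against 2 months 1 rose and 14 fell in limma (3 rose and 7 fell after median-of-ratios scaling). Over all tested genes 19.0% were called higher and 11.4% lower at 10 against 2 months, and 18.6% and 49.6% at 20 against 2 months (31.1% and 31.2% after scaling). Idua, the lysosomal enzyme that removes iduronic acid, averaged 27.6 ± 1.11, 38.7 ± 1.43 and 52.1 ± 3.14 FPKM at 2, 10 and 20 months (SD, n = 3 each). It rose by 0.89 on the log2 scale at 20 against 2 months (limma adjusted p = 1.06e-06; 1.12 after scaling). Glb1, the lysosomal beta-galactosidase, averaged 78.7 ± 0.939, 53.8 ± 2.27 and 30.1 ± 1.54 FPKM at 2, 10 and 20 months, and fell by 1.36 (adjusted p = 6.28e-08; -1.13 after scaling). Sumf2, a relative of the factor that activates sulfatases, fell by 0.84 (adjusted p = 5.55e-06; -0.64 after scaling), and Hyal2, a hyaluronidase, by 0.61 (adjusted p = 1.23e-05; -0.42 after scaling).

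Of 14 genes that bind hyaluronan 3 were tested. Hapln1, which links aggrecan to hyaluronan, averaged 44.3 ± 1.98 FPKM at 20 months and 56.8 ± 0.888 FPKM at 2 months (SD, n = 3 each), a fall of 0.35 on the log2 scale (limma adjusted p = 0.000103; -0.13 after scaling). Cd44, the hyaluronan receptor, fell by 0.28 (adjusted p = 0.00177) and was -0.06 and not called after scaling. Among the 13 genes that the gene table assigns to keratan sulfate synthesis, a term taken up after the data were seen, 10 were tested, and at 20 against 2 months 8 fell and none rose (6 fell and 1 rose after scaling), against 49.6% called lower and 18.6% called higher among all tested genes (31.2% and 31.1% after scaling). Chst5, which passed the filter only through the 10-month libraries, is among the 8. It and B4galt1 were also counted with the further synthesis genes.

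Markers of the nucleus pulposus moved in both directions. Krt19 fell by 0.66 at 20 against 2 months (limma adjusted p = 7.41e-07; -0.43 after scaling), and Krt18 rose by 0.40 (adjusted p = 7.78e-05; 0.63 after scaling). Ca12 fell by 1.22 (adjusted p = 2.15e-06; -1.03 after scaling) and Cdh2 by 0.52 (adjusted p = 2.18e-06; -0.29 after scaling). Cytl1, named after its values were seen, averaged 3.36 ± 0.0484, 17.6 ± 1.21 and 14.4 ± 3.22 FPKM at 2, 10 and 20 months (SD, n = 3 each), and rose by 1.80 at 20 against 2 months (adjusted p = 3.22e-06; 2.01 after scaling).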
